A study of Mus musculus with 15 samples.

Results

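Airway basal cell genes were followed through bleomycin injury of the mouse lung. They were Krt5, Krt14, Krt15, Krt17, Trp63, Aqp3 and Ngfr, 7 of the 33340 genes of the deposited count table, taken by gene symbol because each is a known marker of the basal cells of the airway. Polyadenylated RNA from whole lungs of C57BL/6 mice was sequenced without injury (day 0) or 7, 14 or 21 days after 1 intratracheal dose of bleomycin at 5 U/kg, a drug that breaks DNA and brings on pulmonary fibrosis. The animals of the study were adult males, and each of days 0, 7 and 14 had 4 libraries while day 21 had 3. This count follows the library titles, whereas the series description states 3 replicates at every time point, and which library it would leave out is not given in the sources used here. The day 0 libraries were titled as controls, and no genetic change or second agent was named for any group. Day 0 replicate 4 carried a treatment label naming bleomycin and was kept in day 0 by its title. The labels did not say that each library came from a separate animal, so p-values measure the spread between these libraries.

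Basal cells sit on the basement membrane of the trachea and large bronchi and are the stem cells of that epithelium, renewing secretory and ciliated cells. They are identified by the keratin pair of Krt5 and Krt14, which form the intermediate filaments of basal layers, and by the transcription factor p63. In the mouse these cells are mostly restricted to the trachea and main bronchi, and after severe injury cells with Krt5 and p63 can appear in the alveolar region.

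All 7 genes were scarce in whole lung. Levels are given as reads and as CPM, the reads of a gene relative to the library total after scaling by TMM, a normalization for library composition. Per kilobase of exon, the day 0 means were 0.505 CPM for Krt14, 0.359 for Aqp3, 0.329 for Krt15, 0.169 for Ngfr and 0.0737 for Trp63, while Krt5 and Krt17 had no read in any day 0 library. The 3 highest of these levels were not separated: the day 0 libraries ranged from 0.223 to 2.30 CPM for Krt14, from 0.388 to 0.889 for Aqp3 and from 0.242 to 1.04 for Krt15. Krt5, the defining keratin of these cells, was without a read in 11 of the 15 libraries. Summed over the 7 genes, the level was 2.40 to 5.26 CPM at day 0, 7.80 to 9.04 at day 7, 3.55 to 10.4 at day 14 and 6.00 to 39.1 at day 21. In bulk tissue, fewer cells of a type and less RNA per cell cannot be told apart.

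**Figure D1:**
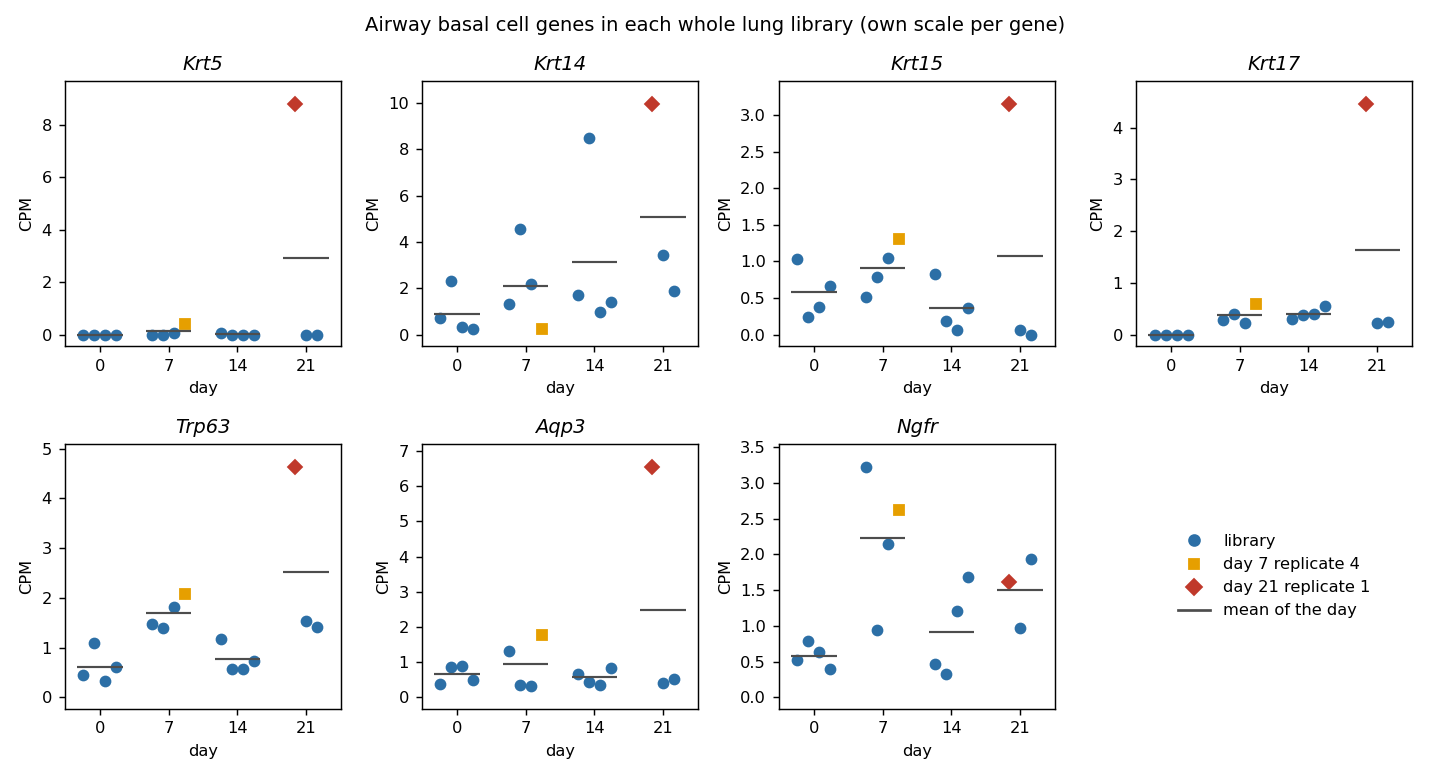
CPM of each gene (y axis, own scale per gene) in the 15 libraries by day (x axis). Circles are libraries, the square is day 7 replicate 4, the diamond is day 21 replicate 1 and bars are means of the day. The diamond is the highest point for 6 of the 7 genes and lies among the other libraries only for Ngfr.

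One library stood apart and bears on each result for day 21. Day 21 replicate 1 held 142 of the 151 Krt5 reads of the whole series, and it had the highest level of the 15 libraries for Krt5, Krt14, Krt15, Krt17, Trp63 and Aqp3. Among all 17457 genes that passed the filter on low counts, 9.86% were highest in that library. Markers of other airway cells were high in it too. Bpifa1, a secreted protein of the upper and large airways, was at 1045 CPM there against 2.79 and 3.82 CPM in day 21 replicates 2 and 3. Scgb3a1, a secretoglobin of airway secretory cells, was at 791 CPM against 17.3 and 2.94, and the mucin Muc5b at 106 CPM against 1.65 and 1.0. Over the 7 club and secretory markers the sum was 7573 CPM in this library, the highest of the 3 at day 21, where the lowest was 1469 CPM, against 27197 to 33884 CPM at day 0. All 6 ciliated markers were higher in it than in the mean of the other day 21 libraries, by 1.67 to 2.98 times. The 6 alveolar type 2 markers summed to 4549 CPM, the lowest of the 15 libraries, and so did the 6 alveolar type 1 markers, at 2006 CPM. The 6 pericyte markers summed to 521 CPM, the highest of the 15 libraries, with Pdgfrb, Cspg4, Notch3 and Kcnj8 each highest there, and the 6 fibroblast markers summed to 6336 CPM, rank 2. Day 7 replicate 4 was the next library for Bpifa1 (330 CPM) and Muc5b (104 CPM), and it had the most Krt5, Krt15, Krt17, Trp63 and Aqp3 of any library but the former. The part of airway, pericyte or fibroblast content in the results below was not tested, and the changes from day 0 to day 21 are therefore given with and without replicate 1 for the 7 genes.

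**Figure D2:**
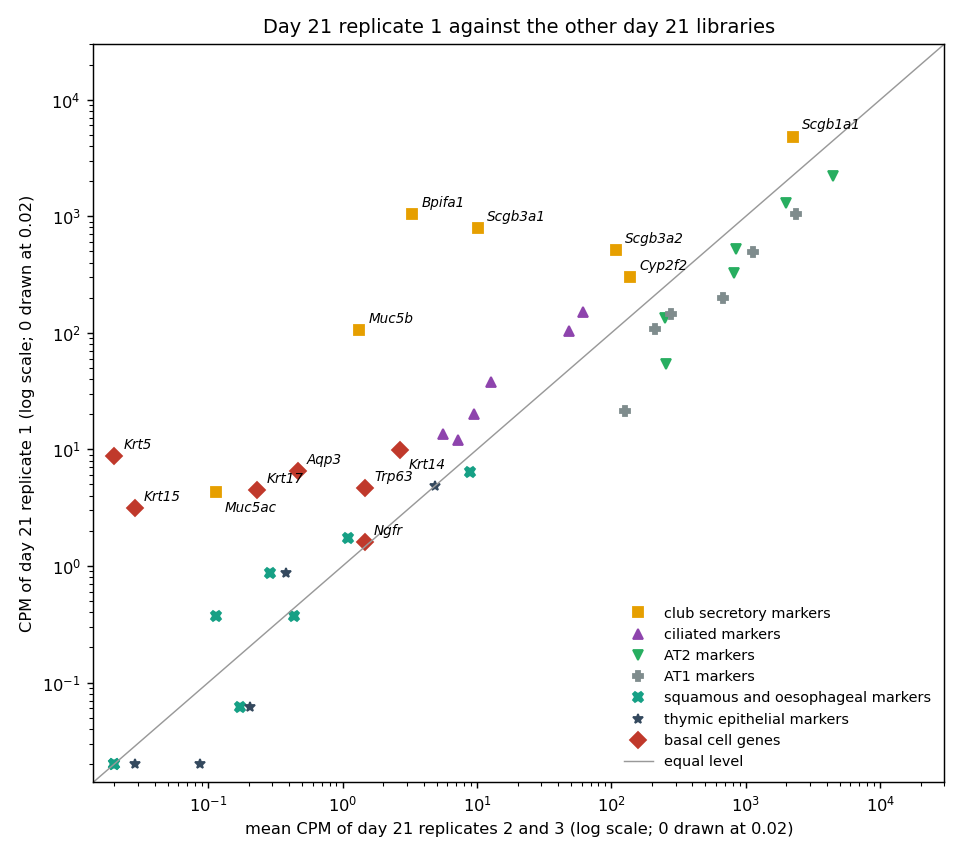
CPM of day 21 replicate 1 (y axis, log scale) against the mean CPM of day 21 replicates 2 and 3 (x axis, log scale), with values of 0 drawn at 0.02 and the line marking equal levels. Diamonds are the basal cell genes and other symbols are marker genes of other cell types. Krt5, Krt15, Krt17 and Aqp3 lie far above the line together with Bpifa1, Scgb3a1 and Muc5b, Ngfr lies on it, and alveolar type 1 and type 2 markers lie below it.

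The markers of other squamous or stratified tissues were read in the same libraries, and they were mixed in day 21 replicate 1. The 8 squamous and oesophageal genes summed to 9.83 CPM there, rank 10 of 15, of which Sprr1a, a cornified envelope precursor, made up 6.43 CPM. In the same list Krt13, Krt4 and Ivl were at 3.26, 3.02 and 1.57 times the mean of the other day 21 libraries, while Sprr3 and Crnn, genes of oesophageal epithelium, were at 0 there but had only 2 and 1 reads in the whole series. The 5 stratified and hillock keratins, which share Krt4 and Krt13 with that list, summed to 2.78 CPM, the highest of the 15 libraries. The 5 thymic epithelial markers summed to 5.81 CPM, rank 6, with Ccl25 at 4.89 CPM, Prss16 at 0.866 CPM (the highest of the 15 libraries), Foxn1 at 0.0618 CPM and Psmb11 and Aire at 0. The 5 skin and mammary markers summed to 2.29 CPM, rank 11, with Oxtr (0.495 CPM) and Csn2 (3 of its 4 reads in the series) highest in this library, Krt10 at 1.42 CPM, Krt1 at 0.186 CPM and Lalba at 0. The 7 cartilage markers summed to 2.47 CPM, rank 3, and of these Col2a1 was at 0.557 CPM there, its highest level, and at 0.502 CPM in day 7 replicate 2, while Snorc was at 0. The part of such tissues in the results was not tested.

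Krt5 (ENSMUSG00000061527, chr15:101707070-101712898 on the minus strand of mm10, with 2197 bases of exon) encodes the type II keratin of the basal pair. The 4 day 0 libraries had 0 reads, which over the group allows a level of up to 0.0457 CPM. Day 7 had 0, 0, 1 and 7 reads, day 14 had 1, 0, 0 and 0, and day 21 had 142, 0 and 0. The 142 reads were 8.78 CPM, with a Wilson 95% interval of 7.45 to 10.3 CPM, and the 7 reads of day 7 replicate 4 were 0.416 CPM (0.202 to 0.859). Apart from these 2 libraries, no library had more than 1 read. Over the group, day 21 was at least 61.3-fold above the day 0 floor, all of it from 1 library, and day 7 at least 2.48-fold. Without replicate 1, the other day 21 libraries held no Krt5 read. Krt5 did not pass the filter on low counts. With no filter, edgeR's quasi-likelihood test gave an adjusted p of 0.0013 at day 21, which became 1 without replicate 1, and 0.347 at day 7. An exact two-sided permutation test of log2 CPM, among 6 such tests run on Krt5 and Krt17, gave p = 0.371 at day 7, 0.571 at day 14 and 0.371 at day 21 for Krt5. For Krt17 it gave 0.0286 at each day, the smallest p these exact tests allow, which the separation of its libraries fixes. Of the 100-base stretches of Krt5 exon, 2.38% also occurred in other genes, the most in Krt6a, and 129 exon bases overlapped a predicted gene on the other strand, so single reads of Krt5 are uncertain.

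Krt14 (ENSMUSG00000045545, chr11:100203162-100207548, minus strand) encodes the type I partner of Krt5, but its reads were distributed otherwise. It had 11, 38, 5 and 4 reads at day 0, 23, 82, 40 and 4 at day 7, 29, 133, 17 and 23 at day 14, and 161, 60 and 32 at day 21. In CPM these were means of 0.888 ± 0.964 (SD, n = 4), 2.08 ± 1.85 (n = 4), 3.14 ± 3.58 (n = 4) and 5.09 ± 4.29 (n = 3). The ranges of all days overlapped that of day 0. The 133 reads of day 14 replicate 2 (8.48 CPM) came with no Krt5 read, and so did the 82 reads of day 7 replicate 2 and the 60 and 32 reads of day 21 replicates 2 and 3. The log2 fold changes against day 0 were 1.23 ± 0.91 (SE) at day 7, 1.81 ± 0.90 at day 14 and 2.51 ± 0.94 at day 21. None passed, with adjusted p-values of 0.341, 0.138 and 0.0563 in edgeR's test, and day 21 without replicate 1 was at 1.54 (adjusted p = 0.298). The call was close to the threshold: without day 0 replicate 2 the values passed at days 14 and 21, at 2.88 (adjusted p = 0.0487) and 3.57 (0.0229), and without day 14 replicate 2 the day 14 value was 0.59. Msln, a mesothelial gene, was also highest in day 14 replicate 2, at 789 CPM, while the remaining 3 libraries of that day were at 261 to 390 CPM. Of the same list, Upk1b was highest there too (69.3 CPM), but Upk3b and Wt1 were highest in day 14 replicate 3 and Lrrn4 in day 7 replicate 2. Epithelial genes such as Krt7 (1142 CPM) and Bcam (1121 CPM) were also highest in day 14 replicate 2. The part of mesothelial or other epithelial content in the Krt14 level was not tested. Krt14 shared 2.78% of its 100-base stretches with Krt16, which had at most 0.220 CPM in any library.

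Krt17 (ENSMUSG00000035557, chr11:100256217-100261029, minus strand), a type I keratin of basal and injured epithelia, separated day 0 from every later library, at very low counts. No day 0 library had a read. Day 7 had 5, 7, 4 and 10 reads, day 14 had 5, 6, 7 and 9, and day 21 had 72, 4 and 4. Every one of the 11 later libraries thus had at least 4 reads, or 0.220 CPM. Of the 32890 genes with any count, 0.0638% were at 0 throughout day 0 and present in every later library. Measured against the day 0 floor of 3 reads over the group, day 7 was at least 8.06-fold higher in Krt17, day 14 at least 8.87-fold and day 21 at least 34.5-fold, or at least 5.07-fold with replicate 1 left out. It failed the filter on low counts and had no test in the edgeR fit used for the other genes. With no filter it passed at day 7 (adjusted p = 0.00902), day 14 (0.00474) and day 21 (8.72e-05), and at day 21 without replicate 1 as well (0.00926). The share of genes called higher in that fit was 4.73% at day 7, 6.23% at day 14 and 6.42% at day 21. DESeq2 gave no adjusted p for Krt17 or Krt5. Between days 7 and 14, at 0.372 ± 0.164 and 0.405 ± 0.103 CPM (SD, n = 4), no difference was detected (adjusted p = 1 with no filter).

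Krt15 (ENSMUSG00000054146, chr11:100131758-100135928, minus strand), a type I keratin that marks basal cells in airway and skin, had 16, 4, 6 and 12 reads at day 0, 9, 14, 19 and 22 at day 7, 14, 3, 1 and 6 at day 14, and 51, 1 and 0 at day 21. The day 21 libraries lay on both sides of day 0, with 3.15 CPM in replicate 1 and 0.0570 and 0 CPM in the other two, below the lowest day 0 value of 0.242 CPM. Krt15 was not called in any contrast. The log2 fold changes against day 0 were 0.64 ± 0.96 (SE) at day 7, -0.68 ± 1.04 at day 14 and 0.86 ± 1.02 at day 21, and their adjusted p-values were 0.659, 0.649 and 0.564. Without replicate 1 the day 21 value turned to -4.05 and passed (adjusted p = 0.0267). The direction also turned with the method, to -1.47 in limma voom with all libraries kept (adjusted p = 0.357). Of the pairs of members, Krt15 and Krt5 had the highest Spearman rho over the 15 libraries, 0.74. Over 14 without replicate 1 it was 0.670, just below the 0.675 of Trp63 and Ngfr. Krt5 ties at 0 in most of the libraries.

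Trp63 (ENSMUSG00000022510, chr16:25683763-25892102, plus strand), which encodes the transcription factor p63 that basal cells require, was higher than at day 0 at days 7 and 21. It had 7, 18, 5 and 11 reads at day 0, 26, 25, 33 and 35 at day 7, 20, 9, 10 and 12 at day 14, and 75, 27 and 24 at day 21. The means were 0.618 ± 0.336 CPM (SD, n = 4) at day 0, 1.69 ± 0.317 (n = 4) at day 7, 0.763 ± 0.288 (n = 4) at day 14 and 2.53 ± 1.83 (n = 3) at day 21. Every day 7 and every day 21 library lay above the highest day 0 library, 1.09 CPM, which was the case for 17.6% of all genes tested at day 7 and 19.4% at day 21. The day 14 libraries lay within the day 0 range but for replicate 1, at 1.18 CPM. The log2 fold change was 1.43 ± 0.45 (SE) at day 7 (adjusted p = 0.0314) and 2.01 ± 0.48 at day 21 (adjusted p = 0.00509), and 0.30 ± 0.47 at day 14 (adjusted p = 0.665). Without replicate 1 the day 21 value was 1.21 and no longer passed (adjusted p = 0.0665), although replicates 2 and 3, at 1.54 and 1.41 CPM, were above all day 0 libraries. The day 7 call was also lost when any of day 0 replicates 1, 3 and 4 or day 7 replicates 1, 3 and 4 was left out, with values of 1.2 to 1.82 and adjusted p-values of up to 0.0941 over the libraries left out in turn, and with glmTreat (adjusted p = 0.189). The step from day 7 to day 14 was not called (-1.14 ± 0.45, adjusted p = 0.126), nor was that from day 14 to day 21 (1.71 ± 0.47, adjusted p = 0.292). The 8391 bases of Trp63 exon cover several isoforms, and the counts do not tell them apart.

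Aqp3 (ENSMUSG00000028435, chr4:41092722-41098183, minus strand), a water and glycerol channel in the membrane of basal cells, had 6, 14, 14 and 9 reads at day 0, 23, 6, 6 and 30 at day 7, 11, 7, 6 and 14 at day 14, and 106, 7 and 9 at day 21. At day 7 the libraries fell on both sides of the day 0 range, with replicates 1 and 4 above it at 1.30 and 1.78 CPM and replicates 2 and 3 below it at 0.335 and 0.33 CPM. At day 21 replicate 1 was at 6.55 CPM and the others at 0.399 and 0.529 CPM, inside the day 0 range. The log2 fold changes against day 0 were 0.50 ± 0.80 (SE) at day 7, -0.20 ± 0.83 at day 14 and 1.91 ± 0.82 at day 21, and their adjusted p-values were 0.679, 0.878 and 0.0907. Day 21 without replicate 1 was at -0.53 (adjusted p = 0.639). With day 21 replicate 2 or 3 left out instead, the day 21 value passed, reaching 2.37 at most. Among the 4 other lung aquaporins, Aqp4 at day 7 was at 17.1 to 28.0 CPM, above all day 0 libraries at 6.41 to 14.3 CPM. Such a separation at day 7 was found for 17.6% of all genes tested. The Aqp4 change of 1.03 ± 0.42 did not pass (adjusted p = 0.0854), but it did without day 21 replicate 1 (1.02, adjusted p = 0.0315). Aqp9 was lower at day 21 (-1.58 ± 0.41, adjusted p = 0.00843), also without replicate 1 (-1.73, adjusted p = 0.0179).

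Ngfr (ENSMUSG00000000120, chr11:95568818-95587735, minus strand), the low-affinity neurotrophin receptor used to sort airway basal cells, rose at day 7. Its level in day 21 replicate 1 was 1.11 times the mean of the other day 21 libraries. It had 8, 13, 10 and 7 reads at day 0, 57, 17, 39 and 44 at day 7, 8, 5, 21 and 28 at day 14, and 26, 17 and 33 at day 21. The means were 0.582 ± 0.169 CPM (SD, n = 4), 2.23 ± 0.965 (n = 4), 0.921 ± 0.641 (n = 4) and 1.51 ± 0.494 (n = 3). All day 7 and all day 21 libraries were above the highest day 0 library, 0.786 CPM. Of all genes tested, 17.6% were so separated at day 7 and 19.4% at day 21. At day 14, replicates 3 and 4 were above that level and replicates 1 and 2 were not. The log2 fold change was 1.93 ± 0.50 (SE) at day 7 (adjusted p = 0.012), 0.66 ± 0.52 at day 14 (adjusted p = 0.349) and 1.36 ± 0.53 at day 21 (adjusted p = 0.0661). The day 7 call was kept with any single library left out, at 1.67 to 2.18, but not in a test against a fold of 1.5 (glmTreat, adjusted p = 0.0751) or with the Scgb1a1 level as a covariate (1.53, adjusted p = 0.238). Day 21 passed in a fit of days 0 and 21 alone, and without replicate 1 it was at 1.28 (adjusted p = 0.143). The fall from day 7 to day 14 was not called (-1.27 ± 0.48, adjusted p = 0.113). Ngfr is also made by Schwann cells and by some pericytes and fibroblasts. Of 4 Schwann markers tested, edgeR called none at day 7 and DESeq2 called S100b, which was at 1.30 ± 0.52 in edgeR's test (adjusted p = 0.0793). The 6 genes of the list summed to 72.0 to 85 CPM at day 7 against 58.3 to 88.2 CPM at day 0, with the lineage factor Sox10 at no more than 0.112 CPM at day 7. Of 6 pericyte markers, Cspg4 was higher at day 7 (0.85 ± 0.30, adjusted p = 0.0478, and 0.0535 without day 21 replicate 1) and Higd1b lower (-0.84 ± 0.24, adjusted p = 0.0199). Of 6 fibroblast markers, 3 were higher at day 7, the strongest Col3a1 (2.23 ± 0.28, adjusted p = 8.55e-05). Over all genes tested, 8.78% were higher and 7.36% lower at day 7. At day 21, Pdgfrb (1.15 ± 0.17, adjusted p = 0.000186) and Cspg4 (1.79 ± 0.32, adjusted p = 0.000676) were higher, also without replicate 1 (0.99 and 1.57), and Cox4i2 was lower (-0.66 ± 0.23, adjusted p = 0.0431), but not without it (adjusted p = 0.113). Of the fibroblast markers, 3 were higher and 1 lower at day 21, and 2 and 1 without replicate 1, beside 12.4% and 10.1% of all genes. The Schwann marker S100b was higher at day 21 too (1.90 ± 0.55, adjusted p = 0.0166), but not without replicate 1 (1.2, adjusted p = 0.143). The part of these cells in the Ngfr level was not tested.

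Counted over the members, 2 of the 5 genes tested were higher at day 7 (Trp63 and Ngfr), where 8.78% of all tested genes were higher and 7.36% lower. At day 14 none was called, none had an unadjusted p under 0.05, and DESeq2 and limma voom called none either, against 12.0% of all genes higher and 11.2% lower. At day 21, 1 was higher (Trp63) against 12.4% of all genes higher and 10.1% lower, and without replicate 1 the call was 1 lower (Krt15). The median log2 fold change of the 5 genes was 1.23 at day 7, 0.30 at day 14 and 1.91 at day 21, or 1.21 at day 21 without replicate 1, beside medians over all genes of 0.01, 0.02 and 0.02. From day 7 to day 14 edgeR called none of the 5, with 2 at an unadjusted p under 0.05 and none by DESeq2 or voom, while 2.77% of all genes were higher and 3.23% lower. From day 14 to day 21 none was called, with 2 at an unadjusted p under 0.05 and none by DESeq2 or voom, and 0.0% of all genes were called in either direction by edgeR, where 1714 had an unadjusted p under 0.05 and DESeq2 called 106. The share of mitochondrial reads also moved with the day: it was 2.03% to 2.15% at day 7, below all day 0 libraries at 2.28% to 4.22%. With the mitochondrial share as a covariate, Ngfr at day 7 was at 2.09 (adjusted p = 0.0462) and Trp63 at 1.26 (adjusted p = 0.161).

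**Figure D3:**
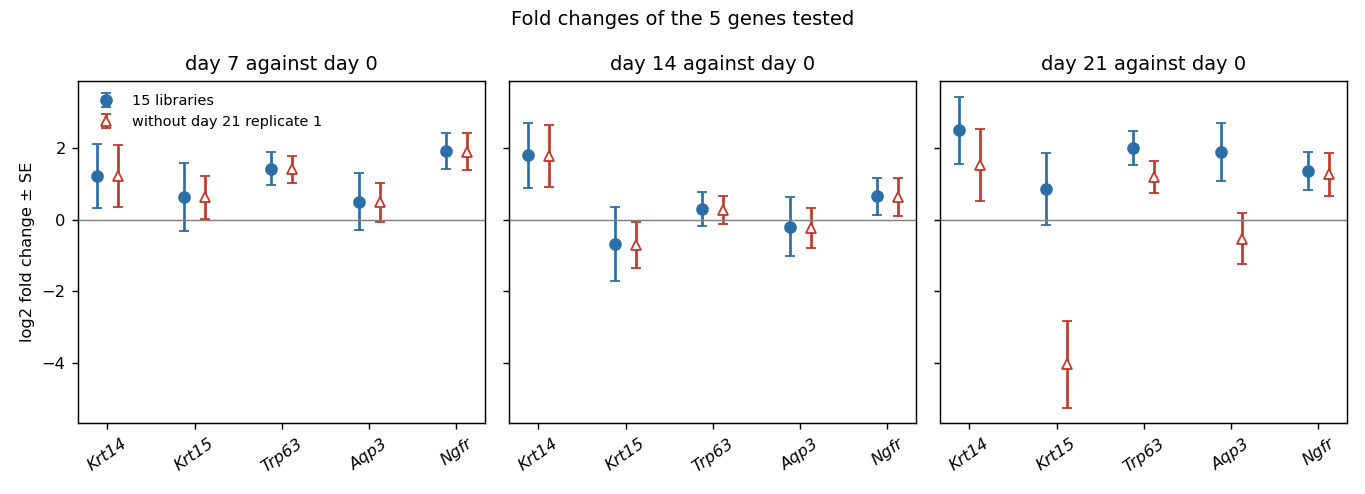
log2 fold change against day 0 (y axis, bars are SE) of the 5 genes tested at each later day. Circles are the fit of all 15 libraries and triangles the fit without day 21 replicate 1. At days 7 and 14 the pairs coincide, and at day 21 Krt15 moves from 0.86 to -4.05 and Aqp3 from 1.91 to -0.53, while Ngfr stays at 1.36 and 1.28.

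The sequence upstream of the start site is shown for Krt5 and Aqp3, members that were high together in day 21 replicate 1 and whose RefSeq start lies within 10 bases of the annotated gene start. The keratin genes of basal cells are known targets of p63, which binds a motif shared by the p53 family, searched here as the core CNNG, then 6 bases of any kind, then CNNG again. Each line gives the 250 bases before the RefSeq start site, 5′ to 3′ on the gene's strand, with every match to this motif in capitals. Krt5 is at chr15:101712906-101713155 and Aqp3 at chr4:41098184-41098433, both on the minus strand of GRCm38.p6.
Krt5: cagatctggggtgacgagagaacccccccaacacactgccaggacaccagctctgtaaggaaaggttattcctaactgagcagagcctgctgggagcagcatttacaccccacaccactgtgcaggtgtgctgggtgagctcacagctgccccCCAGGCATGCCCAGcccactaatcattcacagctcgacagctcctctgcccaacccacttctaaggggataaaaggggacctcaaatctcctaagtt
Aqp3: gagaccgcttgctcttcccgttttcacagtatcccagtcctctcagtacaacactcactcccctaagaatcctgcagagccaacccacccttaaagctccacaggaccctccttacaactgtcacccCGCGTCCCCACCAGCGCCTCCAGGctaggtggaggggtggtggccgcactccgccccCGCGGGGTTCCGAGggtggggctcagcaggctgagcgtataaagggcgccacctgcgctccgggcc
Krt5 held 1 match, beginning 97 bases before the start, and Aqp3 held 3, beginning 123, 113 and 66 bases before it, of which the first pair overlap. The motif reads the same on both strands and occurs in 63.5% of the 32536 distinct RefSeq mouse promoter windows searched, so that a match sets neither gene apart. The stricter form with CATG as both cores, present in 0.464% of windows, was in neither. TATAAA, in 12.3% of windows when both strands are read, was found 29 bases before the Aqp3 start and not in the Krt5 window. RefSeq entries were matched for 4 of the 7 genes, and those for Krt14 and Ngfr are not shown because their start lay elsewhere than the annotated gene start.

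Genes that hold basal cells to the basement membrane and to each other were read from the same fit, from lists named for what the genes do, which were drawn up with earlier results of these data known. Over all genes tested, 8.78% were higher and 7.36% lower at day 7, 12.0% and 11.2% at day 14, and 12.4% and 10.1% at day 21. Of 11 adhesion genes, 8 were tested, and 2 were higher at each of days 7, 14 and 21: Lamb3, a chain of laminin 332, and Itgb4, the integrin subunit of hemidesmosomes. Lamb3 was at 125 ± 16.5 CPM (SD, n = 4) at day 0 and 290 ± 58.8 (n = 4) at day 14, a log2 fold change of 1.22 ± 0.15 (adjusted p = 2.64e-05). Itgb4 at day 21 was no longer called without day 21 replicate 1 (0.68 to 0.39, adjusted p = 0.215), and at day 14 it then fell just short of the fold threshold (0.59 to 0.57, adjusted p = 0.0239). With DESeq2 and with no filter, 4 genes of the list were called at day 21 in place of 2, the others being Pkp1 (higher) and Col17a1 (lower). Col17a1, the hemidesmosomal collagen, went the other way, from 4.53 ± 1.80 CPM at day 0 to 0.697 ± 0.298 at day 14 (-2.68 ± 0.55, adjusted p = 0.0018). The day 21 libraries held 3.83, 0.684 and 0.647 CPM of it, the first in replicate 1, and its change at day 21 was not called with all libraries (-1.40, adjusted p = 0.0718) but was without replicate 1 (-2.79, adjusted p = 0.0015). The desmosomal genes Dsc3, Dsg3 and Pkp1 of stratified epithelia were without a read at day 0 and too low for testing in the filtered fit. All were highest in day 21 replicate 1, Pkp1 at 1.79 CPM from 29 reads. Dsc3 and Dsg3 had only 4 reads each there, against 3 each in day 14 replicate 1. The list's median was 0.18, 0.08 and 0.03 at days 7, 14 and 21, and 0.13 at day 21 without replicate 1. Laminin 332 and hemidesmosome genes are also expressed by alveolar and bronchiolar epithelium.

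Of 12 other genes of basal or progenitor epithelium, 11 were tested. At day 7, 2 were higher and 1 lower, and at days 14 and 21, 2 were higher and 3 lower, beside the shares of 12.0% higher and 11.2% lower (day 14) and 12.4% and 10.1% (day 21) over all genes. Sfn and S100a14, which many epithelia express, were higher at each day. Sfn went from 20.2 ± 4.43 CPM at day 0 to 107 ± 20.2 at day 7 (2.40 ± 0.28, adjusted p = 6.13e-05), and S100a14 from 5.79 ± 0.704 CPM to 28.2 ± 8.78 (2.29 ± 0.39, adjusted p = 0.000957). Fgfr2, the receptor for FGF7 and FGF10 and abundant in alveolar type 2 cells, fell at each day, to -1.98 ± 0.20 at day 21 (adjusted p = 8.58e-06), or -1.86 without replicate 1. Trp73, whose product p73 is a relative of p63 needed for multiciliated cells, was not called at day 7 (-0.35, adjusted p = 0.315) and fell at day 14 (-1.71 ± 0.26, adjusted p = 0.000184) and day 21 (-1.57 ± 0.29, adjusted p = 0.000845), where it was at -1.87 without replicate 1. Sox2, a factor of conducting airway epithelium, was likewise lower at day 14 (-1.28 ± 0.32, adjusted p = 0.00635) and day 21 (-0.95 ± 0.35, adjusted p = 0.0486), and more so at day 21 without replicate 1 (-1.69, adjusted p = 0.00106). The counts at day 21 were the same, 2 and 3, without replicate 1. The medians of the list were -0.19, -0.25 and -0.04.

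The simple keratins Krt7, Krt8, Krt18 and Krt19 of alveolar, bronchiolar and mesothelial cells summed to 773 to 999 CPM at day 0 and 1596 to 2400 CPM at day 7, and all 4 were higher at day 7, the most Krt18 (1.38 ± 0.20, adjusted p = 0.000294). At day 14, 3 remained called and at day 21, 2 (Krt7 and Krt18), of which Krt7 alone passed without replicate 1. Over all genes tested, 8.78% were higher at day 7, 12.0% at day 14 and 12.4% at day 21. Among the stratified and hillock keratins, only Krt4 could be tested, and it was not called at day 7 (1.78 ± 0.87, adjusted p = 0.146), day 14 or day 21. Krt6a, a keratin of wounded and stratified epithelium, had no read at day 0 and 2 to 23 reads in each later library, the most in day 21 replicate 1. It was too low for testing in the filtered fit, and was called higher at each of days 7, 14 and 21 with no filter and with DESeq2. Krt6b had 1 read in the whole series. Krt13 ranged from 0.190 to 0.614 CPM at day 0 and was at 0.371 CPM in day 21 replicate 1.

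**Figure D4:**
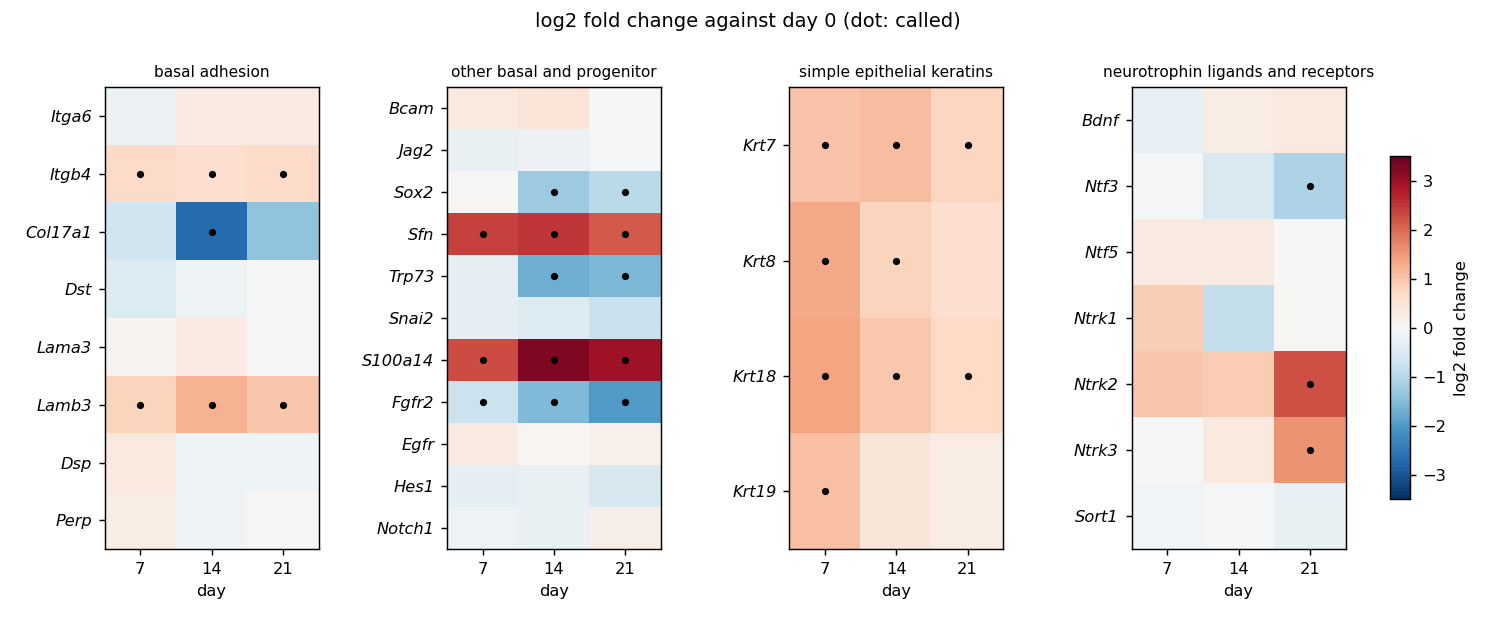
log2 fold change against day 0 (colour, red higher and blue lower) at days 7, 14 and 21 (x axis) for the tested genes of 4 lists (y axis). Dots mark changes that passed the test. Lamb3, Itgb4, Sfn and S100a14 are higher at each day, Trp73 and Sox2 are lower at days 14 and 21, and Ntrk2 and Ntrk3 carry dots at day 21.

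The neurotrophin genes around Ngfr were read in the same way. Of 7 ligands and co-receptors tested, none was called at day 7, where 8.78% of all genes were higher and 7.36% lower. None was called at day 14 either, beside 12.0% higher and 11.2% lower. At day 21, 2 were called higher and 1 lower, where 12.4% of all genes were higher and 10.1% lower. The receptor kinases Ntrk2 and Ntrk3 were higher (2.24 ± 0.59, adjusted p = 0.00949, and 1.56 ± 0.34, adjusted p = 0.00313), and the ligand Ntf3 was lower (-1.08 ± 0.36, adjusted p = 0.0356). All 3 were also called without replicate 1, at 1.86 (adjusted p = 0.0453), 1.58 (adjusted p = 0.0083) and -1.30 (adjusted p = 0.041). Ntrk3 was at 6.31, 6.38 and 7.59 CPM in the 3 day 21 libraries against 1.88 to 2.73 CPM at day 0. Ntrk2 split them, with 83.4, 7.92 and 84.3 CPM, against 6.08 to 20.3 CPM at day 0.

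The genes most like each member over the 15 libraries, by Pearson correlation of log2 CPM among all genes tested, were Gp2 for Krt5 (r = 0.84), Pfdn4 for Krt14 (0.90), Atp2c2 for Krt15 (0.89), Nts for Krt17 (0.92), Sorbs2 for Trp63 (0.93), Igkv3-2 for Aqp3 (0.85) and Itgae for Ngfr (0.86). With day 21 replicate 1 left out, r was 0.87, 0.89, 0.86, 0.84, 0.88, 0.60 and 0.91 in that order. Bpifa1 was among the 3 most like Krt15 (r = 0.85). These are descriptions over libraries that share days, and the highest of 17457 correlations is high by selection. Among the members themselves, Trp63 and Ngfr had a Spearman rho of 0.66 over the 15 libraries and 0.67 without replicate 1, while Krt5 and Krt14 had 0.12 and -0.16.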

How the data were processed

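The authors trimmed reads with TrimGalore, aligned them to mm10 with HISAT2 2.1.0, discarded multi-mapping reads, and deposited the HTSeq 0.6.0 counts per Ensembl gene without normalizing them. The annotation release and strand setting of the counting are not given in the sources used here. Total counts were 15652008 to 18020661 per library, and intervals and floors (3 reads) cover counting error only. Symbols came from GENCODE M21, which matched 33267 of 33340 identifiers.

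The deposited counts were tested with edgeR 4.0.16 in R 4.3.3 (TMM, filterByExpr, quasi-likelihood test, day as the only term, 15 libraries, 17457 genes), and p-values were adjusted by Benjamini-Hochberg over all genes. Calls required a change of more than 1.5-fold with an adjusted p under 0.05, the thresholds of the study. The common coefficient of variation was 22.8%. Krt5 and Krt17 failed the filter and were read from an unfiltered fit, from bounds and from exact permutation tests of log2 CPM. The script was tested on simulated data. Alternatives were DESeq2 1.42.0, limma voom 3.58.1, other scalings and filters, covariates, a replicate block and each library left out. Fits without day 21 replicate 1 in every contrast, without it and day 7 replicate 4, and without it and the filter were chosen after seeing the data, as were the permutation tests. Members and lists were chosen with earlier results of these data known. Named were all members and, per list, up to 4 called genes with the largest changes and defining markers near 0; Pfdn4 and the like were the genes of highest Pearson r. A few genes of the wider lists are not reported here. Library values and ratios quoted for single markers were chosen after their values were seen.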

Additional observations from a re-analysis of the deposited data

Results flagged for a closer look

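In 3 of the 19 groups of 4 libraries examined for the members, the gap of 1 library to the nearest other was large against the range of the group, by Dixon's criterion. For continuous values chance meets it in about 1 group in 20, but this rate does not hold for Krt5, whose groups are mostly at 0 and where a single read against none always meets it. Krt14 in day 14 replicate 2 was at 8.48 CPM, and the remaining 3 libraries of that day at 0.973 to 1.71 CPM. Krt5 in day 7 replicate 4 was at 0.416 CPM, from 7 reads, against 0 to 0.0549 CPM in the others. Krt5 in day 14 replicate 1 was at 0.0591 CPM, which is 1 read against none. Only groups of 4 libraries were examined. The 3 libraries of day 21, which include replicate 1, were not, so that library is absent from these flags.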

How the results depend on the processing

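Reads per member were few, from 133 for Krt17 to 662 for Krt14 over 15 libraries, and the libraries of a day spread widely, so that changes as large as 2.51 (Krt14 at day 21, SE 0.94) did not pass. At day 21 a single library set most values. Each count of members called kept within 1.5 times its value under RLE factors, total count scaling, DESeq2, limma voom, a mean of at least 1 CPM and no fold change threshold, and with these 6 settings the genes called were the same.

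The count at day 7 (2) was 0 with glmTreat at a fold of 1.5, 1 with the mitochondrial share as covariate (Ngfr), 1 with the Scgb1a1 level as covariate (Trp63), and 1 to 2 with single libraries left out. The count at day 14 (0) was 1 with no filter (Krt17), 2 with no filter and without day 21 replicate 1 (Krt17 and Krt14), and 0 to 1 with single libraries left out. The count at day 21 (1) was 4 with no filter (Krt5, Krt14, Krt17 and Trp63), 3 in a fit of the 2 days alone, 2 with no filter and without day 21 replicate 1 (Krt17 higher and Krt15 lower), and 1 to 3 with single libraries left out. With the Scgb1a1 covariate it was 1, Aqp3 in place of Trp63. As Scgb1a1 itself fell with the day, the covariate and the day cannot be told apart. With the replicate block, Krt14 was called at day 14 (1.84, adjusted p = 0.0465) and at day 21 (2.53, adjusted p = 0.019), making counts of 1 and 2, and no other count moved. Same-numbered libraries had correlations of deviations of -0.24 to 0.40. Libraries of different numbers were not compared in this way, so these values do not settle whether the numbers pair the libraries.

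Directions turned as follows, and the cause was not tested. With single libraries left out in turn, the changes against day 0 that turned ranged from -4.05 to 1.40 for Krt15 at day 21 and from -0.53 to 2.37 for Aqp3 at day 21 (both lowest without day 21 replicate 1), from -0.0047 to 0.79 for Aqp3 at day 7 (lowest without day 7 replicate 4) and from -0.014 to 0.68 for Trp63 at day 14 (lowest without day 14 replicate 1). From day 7 to day 14, Krt14 ranged from -0.62 (without day 14 replicate 2) to 1.31. From day 14 to day 21 the ranges were -0.25 to 1.89 for Krt14, -3.35 to 2.33 for Krt15 and -0.31 to 2.59 for Aqp3 (lowest without day 21 replicate 1). Without that library and day 7 replicate 4, Krt15 and Aqp3 at day 21 were -4.02 and -0.49, Aqp3 at day 7 was -0.0030, and Krt14, Krt15 and Aqp3 from day 14 to day 21 were -0.24, -3.34 and -0.30. Without day 21 replicate 1 and the filter these were -4.05 and -0.53 at day 21, and -0.24, -3.35 and -0.31 from day 14 to day 21. In voom, Krt15 at day 21 was -1.47, and -0.54 against day 14. With the Scgb1a1 covariate, Krt15 and Aqp3 at day 14 were 5.71 and 4.24, and against day 7 they were 0.94 and 1.0.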

Other observations

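Genes without a read in the 4 day 0 libraries and with reads in all 11 later libraries numbered 21 of 32890. Besides Krt17 and Krt6a they included Epgn, a ligand of the epidermal growth factor receptor, Mmp10, a matrix metalloproteinase, Duox1, an oxidase of airway epithelium, and Crct1, a gene of cornifying epithelium. These were picked from the values, so no test was made. Of the 4 genes of the squamous list that could be tested, Sprr1a, a cornified envelope precursor, had the largest change at day 7 (5.5 ± 0.38, adjusted p = 5.70e-07 in edgeR's test), from 0.279 to 1.23 CPM at day 0 to between 21.5 and 51.2 CPM at day 7, and it fell from day 7 to day 14 (-1.65 ± 0.29, adjusted p = 0.00725). Its level in day 21 replicate 1, the library with most Krt5, was 6.43 CPM, the lowest of the 11 later libraries.

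Of the 7 transitional alveolar genes tested, 6 were higher at day 7, 7 at day 14 and 6 at day 21 (over all genes, 8.78%, 12.0% and 12.4% were higher), and the count at day 21 was also 6 without day 21 replicate 1. Cldn4, a tight junction gene of that state, went from 5.95, 5.80, 5.33 and 3.96 CPM at day 0 to 107, 74.4, 51.2 and 48.0 CPM at day 7 (3.74 ± 0.42, adjusted p = 4.6e-05). Among mesothelial genes, Msln was higher at days 14 and 21 (2.28 ± 0.41 and 2.13 ± 0.42, adjusted p = 0.000635 and 0.0016, and 2.13 at day 21 without replicate 1), and the other 4 of that list were not called.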
